A study of Mus musculus with 9 samples.

Results

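The Hox genes of the mouse aorta were examined as a family. Members were every gene of the deposited table whose Ensembl identifier carries a symbol made of Hox, a cluster letter from a to d and a number, with antisense genes left out. This found 38 members among 37668 genes. The symbol table holds 39 such genes, and Hoxd4 was not matched and is not analysed here. RNA was sequenced from the aorta of 9 male mice aged 90 days on a mixed 129T2SvEmsJ and C57Blk/6J background, in 3 groups of 3. All 9 carried the floxed allele of Agtr1a, which encodes a receptor for angiotensin II. The floxed group had no Cre transgene. In the Cdh5Cre group the Cdh5 promoter, active in endothelium, drove Cre, and in the Sm22Cre group the SM22 (Tagln) promoter, active mainly in smooth muscle and also in the embryonic heart, did so. The series title names Marfan syndrome, but the labels of the samples give no Marfan allele, no treatment and no segment of the aorta.

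Hox genes encode transcription factors with a DNA-binding homeodomain and lie in 4 clusters, A to D. Within a cluster the genes are numbered by paralogue group from the 3′ end to the 5′ end. In the embryo the low numbers are switched on early and towards the head, and the high numbers late and towards the tail. Adult smooth muscle cells and fibroblasts keep much of this code, so a Hox profile is used as a record of where along the body a tissue arose. The wall of the ascending aorta and arch comes largely from the heart field and neural crest, and that of the descending aorta from the trunk mesoderm.

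All levels are the authors' values in FPKM (fragments adjusted for transcript length and for the total mapped), 1 per group of 3 mice. They are given in the order floxed, Cdh5Cre, Sm22Cre unless groups are named. No value of a single mouse was used, so no SD or p-value could be computed and no difference below has a replicate check. FPKM sums over all genes were between 495724 and 607860 per group, and the sequencing depth is unknown. The targeted gene Agtr1a stood at 1.75, 1.32 and 1.21 FPKM, and whether its fragments fell in the floxed part is not known. Smooth muscle markers defined the tissue, with Tagln at 4089, 4477 and 4112 FPKM, and all 8 markers of that list passed the low-value filter. The table gives each gene a status in each pair of groups, such as OK or FAIL, and 6 of these 8, Tagln among them, had FAIL in at least 1 pair. Genes of neighbouring tissues were present too: the brown fat gene Ucp1 was at 63.8, 67.4 and 62.0 FPKM and the heart muscle gene Myh6 at 97.3, 125.2 and 40.5. Lung epithelium markers summed to 0.72, 1.85 and 0.79 FPKM. Kidney and adrenal markers summed to 2.64, 2.72 and 2.23 FPKM. Of these 8, 5 were listed at 0 in every group, and Star alone passed the low-value filter. In whole tissue, fewer cells of a type and less RNA per cell cannot be told apart.

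The aorta had a Hox profile centred on paralogue groups 2 to 8. Together these 19 members summed to 96.3, 99.6 and 96.7 FPKM, which was 95.9%, 94.9% and 95.4% of all Hox FPKM. The whole family summed to 100.3, 105.0 and 101.4 FPKM. In floxed 17 of the 38 members reached 1 FPKM, in Cdh5Cre 17 did and in Sm22Cre 16. The member just inside that level was Hoxd8, with a highest value of 1.02 FPKM, and the one just outside was Hoxc4, with 0.99. Cluster A held 66.7%, 65.2% and 65.9% of the sum, cluster B 28.0%, 29.1% and 28.8%, cluster C 3.71%, 4.07% and 3.66%, and cluster D 1.57%, 1.71% and 1.61%. The listed loci of clusters B to D lie on mm9 at chromosome 11, 96055630 to 96229570 (B), chromosome 15, 102751534 to 102867274 (C) and chromosome 2, 74506367 to 74603200 (D).

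**Figure D1:**
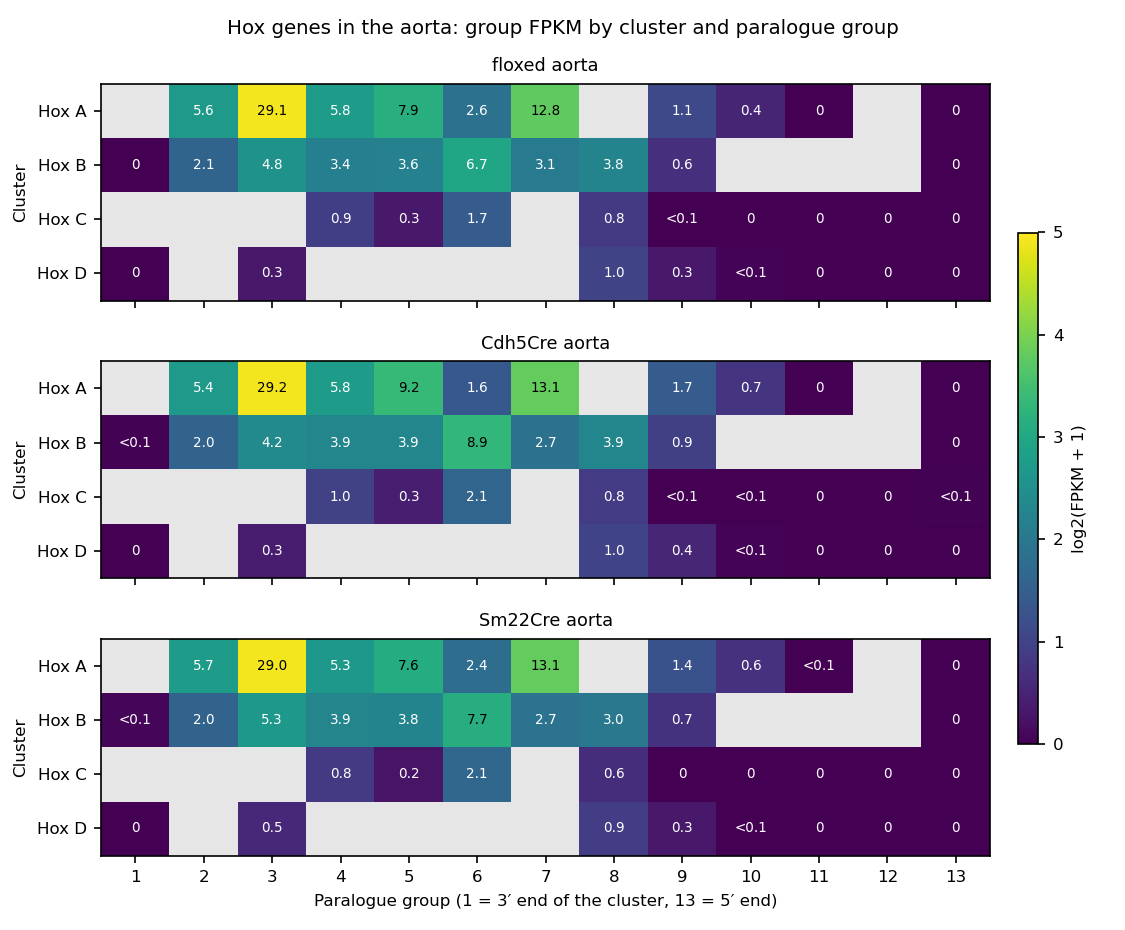
Group FPKM of 37 Hox members, 1 panel per group, with clusters in rows and paralogue groups in columns. Colour gives log2(FPKM + 1), printed numbers are FPKM, and grey marks positions with no value shown. Cluster A and B genes of paralogue groups 2 to 8 carry most of the signal in every panel, and groups 11 to 13 are at or near 0.

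The anterior members, of paralogue groups 1 to 3, were led by Hoxa3. Hoxa3, needed in the embryo for organs of the third pharyngeal arch, had the highest level of any Hox gene, at 29.1, 29.2 and 29.0 FPKM. The 3 values differed by less than 1 FPKM. Hoxa2, which patterns the second arch and its neural crest, was at 5.56, 5.45 and 5.71 FPKM. Hoxb3 stood at 4.83, 4.18 and 5.35 FPKM, so it was lowest in the former Cre group and highest in the latter. Hoxb2, a hindbrain gene, was at 2.06, 2.03 and 2.03 FPKM. Hoxb1 was listed at 0, 0.014 and 0.045 FPKM, and Hoxd1 at 0 in every group. Hoxd3 was at 0.26, 0.32 and 0.50 FPKM. Anterior members made up 43.2%, 40.7% and 43.7% of the Hox sum, most of it Hoxa3 alone.

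The central members, of groups 4 to 8, made up 54.3%, 55.6% and 53.4%. Hoxa7 was the second highest Hox gene in every group, at 12.8, 13.1 and 13.1 FPKM. Hoxa5, which acts in the neck and upper trunk and in lung development, was at 7.93, 9.23 and 7.57 FPKM, highest in Cdh5Cre. Hoxb6, a trunk gene, was at 6.67, 8.91 and 7.72 FPKM, lowest in floxed. Hoxa4 stood at 5.79, 5.83 and 5.32 FPKM. Its cluster B paralogue Hoxb4, known also as a regulator of blood stem cells, was at 3.44, 3.94 and 3.87 FPKM, and Hoxb5 at 3.59, 3.92 and 3.81. Both were slightly lower in floxed than in either Cre group. Hoxb8 was at 3.80, 3.91 and 3.00 FPKM, with the low value in Sm22Cre. Hoxb7 was at 3.12, 2.66 and 2.73 FPKM. Hoxa6 was at 2.63, 1.61 and 2.44 FPKM, which was the widest gap, as a ratio, among the 17 members at 1 FPKM or more. Of cluster C, Hoxc6 alone reached 1 FPKM, at 1.74, 2.08 and 2.13. Hoxc4 (0.89, 0.99 and 0.81 FPKM), Hoxc8 (0.81, 0.84 and 0.57) and Hoxc5 (0.27, 0.34 and 0.20) stayed below it. Hoxd8, the only member of cluster D above 1 FPKM, was at 1.02, 1.00 and 0.87.

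The profile ended at paralogue groups 9 and 10. Hoxa9 was at 1.14, 1.75 and 1.41 FPKM, and was the only one of 16 posterior members (groups 9 to 13) to reach 1 FPKM. Hoxa7, the next member in the 3′ direction, was far higher. Hoxb9 stood at 0.61, 0.93 and 0.67 FPKM, Hoxa10 at 0.44, 0.69 and 0.64, and Hoxd9 at 0.26, 0.44 and 0.26. Beyond these, the level of every other member of groups 10 to 13 was at most 0.031 FPKM, that of Hoxd10 in floxed. Hoxc9 was at 0.0047, 0.0051 and 0. Hoxa13, Hoxb13, Hoxc11, Hoxc12, Hoxd1, Hoxd11, Hoxd12 and Hoxd13 were listed at 0 in all 3 groups. Without counts, a listed 0 is a value of the table and sets no upper limit on expression. Genes of the 5′ end, such as Hoxa13 and Hoxd13, act in the distal limb and genital tract.

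**Figure D2:**
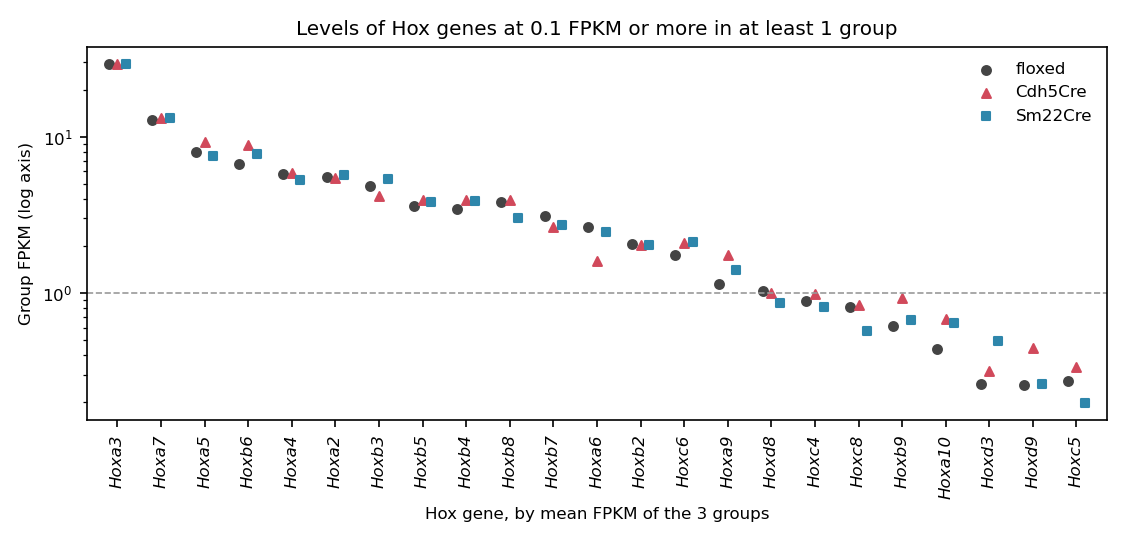
Levels of 23 Hox members at 0.1 FPKM or more in at least 1 group, on a log axis, ordered by their mean. Circles are floxed, triangles Cdh5Cre and squares Sm22Cre, 1 group value each. The dashed line is 1 FPKM, and the groups lie close together for the high members and spread more for the low ones.

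The order of the levels was much the same in the 3 groups. Hoxa3 and Hoxa7 came first and second in each. Hoxa5 and Hoxb6 followed, in that order in floxed and Cdh5Cre and in the other order in Sm22Cre. Spearman's rho between paralogue number and FPKM was -0.64, -0.56 and -0.66 over the 11 members of cluster A, and -0.07, -0.22 and -0.22 over the 10 of cluster B. Over the 9 members of cluster C it was -0.87, -0.73 and -0.82, and over the 8 of cluster D -0.51, -0.46 and -0.51. These describe genes of shared libraries and loci, which are not independent points. Cluster B differed in shape from A: its level had no single peak near the 3′ end and stayed between 2.03 and 8.91 FPKM from Hoxb2 to Hoxb8.

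Promoter sequences are shown for 4 steps along cluster A, from an expressed gene to one listed at 0. RefSeq promoters on GRCm38.p6, a later build than the mm9 of the values, were matched for 21 of the 38 members, in 23 windows of 300 bases. The 120 bases just before the start are printed 5′ to 3′ on the gene's strand, with CpG dinucleotides in capitals, for windows there that overlap no exon of a protein-coding gene in GENCODE M21. All 4 genes are on the minus strand of chromosome 6, at chr6:52204588-52204707 for Hoxa5, chr6:52227371-52227490 for Hoxa9, chr6:52234940-52235059 for Hoxa10 (one of its 2 listed starts, the other holding 3 CpG in the same stretch) and chr6:52260881-52261000 for Hoxa13.
Hoxa5: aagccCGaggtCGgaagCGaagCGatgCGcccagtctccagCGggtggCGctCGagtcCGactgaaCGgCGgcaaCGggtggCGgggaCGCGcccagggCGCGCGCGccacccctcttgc
Hoxa9: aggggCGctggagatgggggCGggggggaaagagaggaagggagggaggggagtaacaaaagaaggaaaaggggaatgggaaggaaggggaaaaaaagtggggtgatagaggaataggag
Hoxa10: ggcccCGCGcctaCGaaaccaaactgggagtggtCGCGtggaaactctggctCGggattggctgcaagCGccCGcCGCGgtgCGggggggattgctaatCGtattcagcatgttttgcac
Hoxa13: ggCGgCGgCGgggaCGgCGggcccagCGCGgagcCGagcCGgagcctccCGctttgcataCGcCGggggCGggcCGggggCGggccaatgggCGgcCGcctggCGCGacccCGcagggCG

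The printed stretches hold 19 CpG in Hoxa5, 2 in Hoxa9, 12 in Hoxa10 and 21 in Hoxa13, so across these 4 the CpG count did not go with the level of the gene. The windows of Hoxa2 (1 CpG) and Hoxa11 (6 CpG) in cluster A also overlap no such exon and are not printed. Over the full windows, the ratio of observed to expected CpG had a median of 0.66 in the 23 Hox windows against 0.38 in all 32851 windows of the table. It was 0.59 in the 9 windows of members at 1 FPKM or more and 0.77 in the 14 of lower members. Promoters rich in CpG are the usual sites where Polycomb proteins keep Hox genes silent. The letters TGATNNAT, a joint site of Hox and Pbx proteins, were searched on both strands. They occurred in 4 of 23 Hox windows (17.4%), those of Hoxa2, Hoxb1, Hoxb8 and one of the 2 of Hoxd11, and in 8.85% of all windows. AGGTCA, a core motif of nuclear receptors such as those for retinoic acid, was found on either strand in 6 Hox windows (26.1%) and in 16.3% of all. Of the other motifs searched, TAATNA was found in 6 Hox windows (26.1%) and in 26.5% of all. TATAAA was found in 3 Hox windows (13.04%) and in 13.62% of all, and GGGCGG in 10 (43.5%) and in 35.7% of all. The Hox share was thus higher for some motifs and slightly lower for TAATNA and TATAAA. Overlaps between motifs were not removed, and a match is only a string of letters.

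A microRNA family lies beside the group 9 genes of clusters A to C, which is not where the levels end in each cluster. In cluster C the levels fell before it, between Hoxc8 and Hoxc9. In cluster A, Hoxa10 beyond it was still at 0.44, 0.69 and 0.64 FPKM. On GRCm38.p6, judged by the midpoints of the gene records, Mir196b lies between Hoxa9 and Hoxa10, Mir196a-1 between Hoxb9 and Hoxb13, and Mir196a-2 between Hoxc9 and Hoxc10. Of the other family, Mir10a lies between Hoxb4 and Hoxb5. Mir10b lies between the midpoints of Hoxd4 and Hoxd3 in cluster D, inside the gene records of both. Both families are known to target Hox transcripts. Mature RefSeq sequences are printed 5′ to 3′ with the seed, bases 2 to 8, in capitals.
miR-196a-5p: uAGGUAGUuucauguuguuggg
miR-196b-5p: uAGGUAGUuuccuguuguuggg
miR-10a-5p: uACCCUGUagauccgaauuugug
miR-10b-5p: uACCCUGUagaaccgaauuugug

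The miR-196 members share the seed AGGUAGU and the miR-10 members the seed ACCCUGU. Libraries made from poly-A RNA do not measure mature microRNAs. Mir196b, Mir196a-2 and Mir10b were listed at 0 in each group, and Mir10a at 0.75, 0 and 0.73 FPKM.

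By its labels, the comparison of Cdh5Cre with floxed asks what differs when Cre acts on the receptor allele in endothelium. Genes with 1 FPKM in some group were analysed, and 2-fold on the log2(FPKM + 1) scale, which understates differences of low genes, was the size that counted. No Hox member was counted: 0 of 17 were higher, against 1.19% of the 14225 genes analysed, and 0 of 17 lower, against 0.703%. Of the 38 members, 21 stayed below 1 FPKM in every group and were not analysed. On the same scale 0 of 17 reached 1.5-fold in either direction, against 14.3% of all genes. That 0 depends on the scale: as plain ratios of FPKM, Hoxa6 (1.64-fold lower) and Hoxa9 (1.53-fold higher) passed 1.5-fold. The share of all genes past 1.5-fold by plain ratio was not computed. Shares as low as those at 2-fold leave little room for any of 17 members, so the 0 there says little. The Hox median was 0.01 beside 0.02 for all genes, with 10 members above 0 and 7 below. This split depended on the processing: with the trend in transcript length and GC content removed, 3 members were above 0 (Hoxa5, Hoxa9 and Hoxb6) and 14 below. The median size of the ratio as deposited, regardless of sign, was 0.10 for Hox and 0.27 for all genes, and 14 of 17 members lay under the latter.

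The member with the lowest ratio was Hoxa6, 1.64-fold lower in Cdh5Cre as a plain ratio of FPKM (log2 ratio -0.48). Hoxb6 was 1.34-fold higher (0.37) and Hoxa9 1.53-fold higher (0.36). Hoxa5 followed at 1.16-fold and Hoxc6 at 1.19-fold higher, with log2 ratios of 0.20 and 0.17 that became 0.06 and -0.09 with the trend removed. Neighbours on the chromosome did not share its value: Hoxa6 lies between Hoxa5 and Hoxa7, which were at log2 ratios of 0.20 and 0.04. Hoxa6 and its neighbours from Hoxa2 to Hoxa7 share 1 listed locus (mm9 chromosome 6, 52112350 to 52171853) with other genes, 11 in all, so fragments may be divided among them. All 17 members at 1 FPKM or more share a locus with another gene, and all 17 had the status OK in every pair, while in this pair 71.8% of all genes analysed had it.

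Of the low posterior members, 4 had higher values in both Cre groups than in floxed, a pattern singled out after the values were seen. These were all the members of groups 9 and 10 at 0.1 FPKM or more, and both comparisons share the floxed group. Below that floor Hoxd10 was at 0.031, 0.030 and 0.012 FPKM, and Hoxc9 was at 0 in Sm22Cre. The share of all genes higher in both Cre groups was not computed. In Cdh5Cre the plain ratios were 1.53 for Hoxa9, 1.57 for Hoxa10, 1.51 for Hoxb9 and 1.71 for Hoxd9. In Sm22Cre they were 1.23, 1.47, 1.09 and 1.01, so the last 2 were close to floxed, and Hoxd9 had status NOTEST there. The posterior share of the Hox sum was 2.48%, 3.68% and 2.96%. Only Hoxa9 reached 1 FPKM, and the error of values this low is not known. Markers of other cell types were higher in Cdh5Cre than in floxed, where the median log2 ratio of all genes was 0.02. All 8 endothelial markers were above floxed, 2 of them by 2-fold, with sums of 317.5, 488.1 and 356.6 FPKM over the 3 groups. Of the fibroblast markers 7 of 8 were above floxed (sums of 2439, 3731 and 2363 FPKM), and all 5 analysed red cell markers were above it by 2-fold (4020, 25453 and 9029 FPKM). Status was FAIL in at least 1 pair for 3 of these endothelial, 4 of the fibroblast and 4 of the red cell markers, and no marker of these lists was at 0 in all groups. Their part in the Hox values was not tested.

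**Figure D3:**
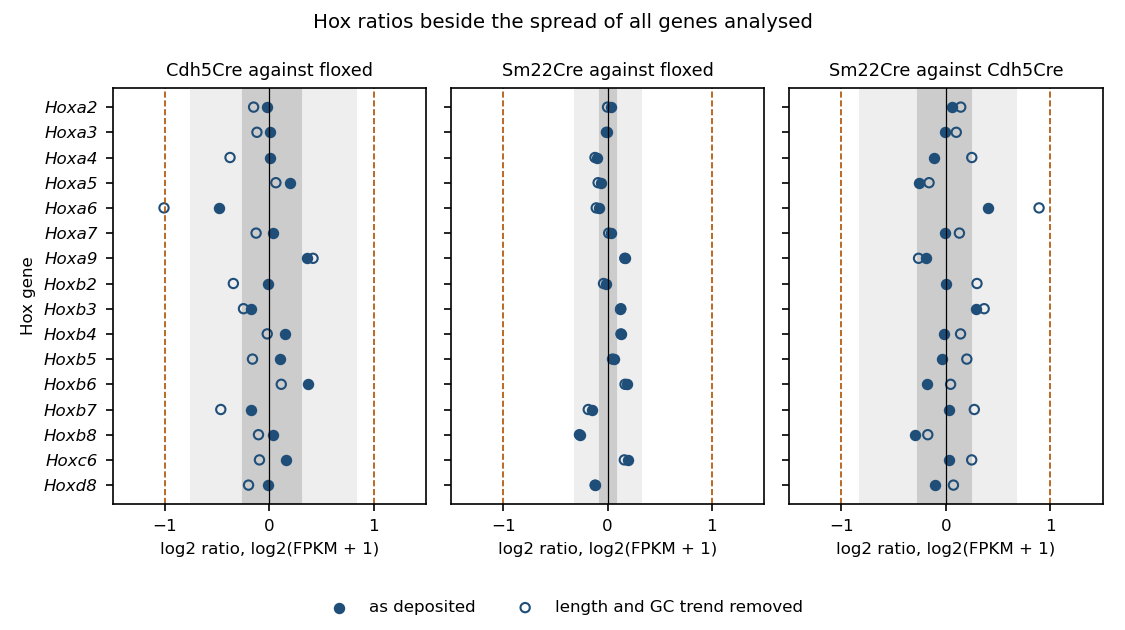
Log2 ratios on the log2(FPKM + 1) scale of 16 of the 17 Hox members analysed, 1 panel per comparison. Filled points are as deposited and open points have the trend with transcript length and GC content removed. The dark band holds the central 50% of all genes analysed and the light band the central 95%, and dashed lines mark 2-fold. Filled points lie inside the dashed lines in every panel, and the open point of Hoxa6 reaches -1.01 in Cdh5Cre against floxed.

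Transcript length went with the ratios of this comparison. A cubic surface in length and GC content accounted for 45.7% of the variance of the log2 ratio over 12317 protein-coding genes, and 3.86% in Sm22Cre against floxed. In 20 bins of length the median ratio went from 0.47 in the shortest to -0.40 in the longest. Hox transcripts were short, with a median of 1964 bases against 3120 for all genes, and had a median GC content of 54.0% against 50.4%. With the trend removed the Hox median was -0.12 in place of 0.01, and the median size 0.15 beside 0.17 for all genes. Hoxa6, at 874 bases the shortest of the 17, then reached 2-fold lower (-1.01), Hoxb7 was at -0.46, and Hoxa9 kept its ratio at 0.42.

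**Figure D4:**
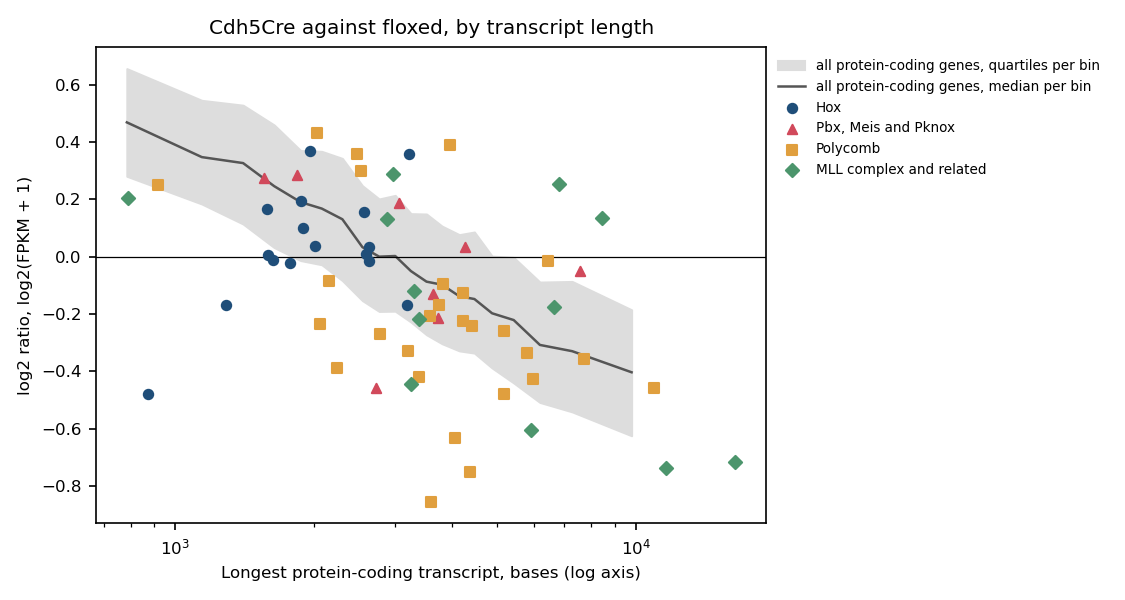
Log2 ratio of Cdh5Cre against floxed on the log2(FPKM + 1) scale, by the length of the longest protein-coding transcript on a log axis. The line and band give the median and quartiles of all protein-coding genes in 20 bins of length, and points are 16 Hox members, 8 Pbx, Meis and Pknox genes, 27 Polycomb genes and 12 genes of the MLL complex and related enzymes. The median goes from 0.47 to -0.40, and most Hox points lie at lengths below 3120 bases.

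The comparison of Sm22Cre with floxed asks the same for Cre acting in smooth muscle. Here too 0 of 17 Hox members were higher by 2-fold, against 0.302% of all genes, and 0 of 17 lower, against 0.33%. At 1.5-fold in either direction there were 0 of 17, against 1.54%. The Hox median was 0.03 beside 0.01 for all genes, with 9 members above 0 and 8 below. The median size of the ratio was 0.10 for Hox and 0.08 for all genes, and 7 of 17 lay under the latter. Hoxb8 was lowest, at 1.27-fold lower (-0.26), and Hoxc6 highest, at 1.22-fold higher (0.19). Hoxb6 followed at 1.16-fold higher (0.19) and Hoxa9 at 1.23-fold higher (0.17). Among members below 1 FPKM, Hoxd3 had a plain ratio of 1.90 and Hoxc8 was 1.43-fold lower, at levels where 1 value per group carries little weight.

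Set directly against Cdh5Cre, Sm22Cre again had 0 of 17 members higher by 2-fold (0.401% of all genes) and 0 of 17 lower (1.23%), and 0 of 17 at 1.5-fold in either direction (11.9%). The median was -0.01 for Hox and -0.01 for all genes, with 6 members above 0 and 11 below, or 14 above and 3 below with the trend removed. Hoxa6 had the highest ratio (0.40) and Hoxb8 the lowest (-0.30), with Hoxb3 at 0.29. As a plain ratio of FPKM, Hoxa6 was 1.52-fold higher and so past 1.5-fold. Hoxa6 was at 0.89 with the length and GC trend removed. The 3 comparisons share groups and are not independent of each other: the low value of Hoxa6 in Cdh5Cre enters 2 of them.

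Hox proteins bind DNA together with Pbx and Meis proteins, homeodomain factors of the TALE class, which sharpen the sites they choose. All 9 genes of the list were analysed, and none reached 2-fold in any comparison. Meis2 stood at 29.7, 25.4 and 28.7 FPKM, and Pbx2, with FAIL in at least 1 pair, at 17.6, 20.2 and 17.3. Pbx3, also with FAIL, was at 6.30, 4.30 and 5.71 FPKM, with a ratio of -0.46 in Cdh5Cre that became -0.42 with the trend removed. Meis3 was at 9.54, 11.9 and 10.5 FPKM, and Pknox2, again with FAIL, at 7.74, 7.00 and 6.86. The list median was -0.05 in Cdh5Cre and -0.05 in Sm22Cre.

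Polycomb proteins keep Hox genes silent outside their domain, and the MLL complex, built on Kmt2a, keeps them active within it. None of the 27 Polycomb genes reached 2-fold in any comparison. In Cdh5Cre 22 of 27 had lower values than floxed, with a median of -0.24 beside 0.02 for all genes. The list median was -0.14 with the length and GC trend removed. Bmi1, a subunit of the complex that marks histone H2A, was at 24.0, 12.8 and 20.6 FPKM. Suz12, a core subunit of the complex that methylates histone H3, was at 15.2, 8.61 and 13.9 FPKM. Both had FAIL in at least 1 pair, as did 10 of the 27 in all, Rbbp7 and Cbx6 among them. The catalytic subunit gene Ezh2 was at 2.63, 2.02 and 3.00 FPKM. Ring1 stood at 15.8, 21.6 and 18.5 FPKM and Phc2 at 34.8, 46.0 and 34.5, with the highest value of each in Cdh5Cre. The most abundant of the list were the histone-binding genes Rbbp7 (96.1, 73.2 and 95.8 FPKM) and Rbbp4 (71.9, 60.7 and 73.2) and the reader Cbx6 (79.0, 62.3 and 69.6). In Sm22Cre the list median was -0.03.

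Of the 12 genes on the active side none reached 2-fold either. Kmt2a, a histone methyltransferase, was at 12.0, 6.92 and 10.2 FPKM. Kmt2a had FAIL, its transcript is 16470 bases long, and its Cdh5Cre ratio of -0.72 was -0.32 with the trend removed. Ash1l, another methyltransferase with a transcript of 11644 bases, was at 14.2, 8.11 and 13.5 FPKM, with ratios in Cdh5Cre of -0.74 and, with the trend removed, -0.23. Men1, whose product links the complex to chromatin, was at 20.1, 24.7 and 21.4 FPKM, and Psip1 at 33.3, 24.2 and 32.7, both with FAIL. The H3K79 methyltransferase gene Dot1l was higher in both Cre groups, at 7.09, 8.63 and 8.68 FPKM. The list median was -0.15 in Cdh5Cre, or -0.05 with the trend removed, and 0.00 in Sm22Cre.

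Retinoic acid, with Cdx factors and Gdf11, sets Hox borders in the embryo. Of 19 such genes 13 were analysed, and none reached 2-fold. Aldh1a1, which makes retinoic acid, was at 25.2, 42.0 and 25.7 FPKM, with a Cdh5Cre ratio of 0.71 and of 0.76 with the trend removed. Aldh1a3, a related enzyme, was at 3.57, 5.49 and 3.01 FPKM. The receptor genes Rarg (33.7, 38.7 and 31.8 FPKM), Rxra (30.6, 25.5 and 26.0) and Rxrb (26.98, 32.9 and 27.5) were the most abundant receptors of the list, and Rarg had the highest mean over the 3 groups of all its genes. Rara was at 8.12, 12.2 and 8.58 FPKM and, like Rarg and Rxrb, had status FAIL. Cyp26b1, which breaks retinoic acid down and also had FAIL, was at 8.05, 7.14 and 6.45. The list median in Cdh5Cre was 0.24, and -0.01 with the trend removed.

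Of 16 noncoding genes of the clusters found in the table, 5 were analysed. Hotairm1, of cluster A, was at 22.4, 37.7 and 25.5 FPKM, highest in Cdh5Cre. Hoxaas2, at the locus of Hoxa2 to Hoxa7, stood at 9.49, 13.8 and 10.8 FPKM. Hoxb3os was at 19.7, 22.3 and 22.2 FPKM, Hoxb5os at 3.61, 3.11 and 2.20 and Hoxaas3 at 1.04, 1.32 and 1.09. None of these 5 reached 2-fold. The sources used here do not say whether counting used the strand, so fragments of a Hox gene and of its antisense partner may have been mixed. Hotair, transcribed within the posterior part of cluster C, was listed at 0 in every group, and Hottip, at the 5′ end of cluster A, at 0, 0.04 and 0.

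Factors of the heart fields, outflow tract and neural crest mark the proximal aorta, and they act largely apart from the Hox code. Of 29 on the list 22 were analysed. Gata6 was at 34.5, 31.7 and 32.9 FPKM, Foxc1 at 33.4, 28.5 and 27.7 and the smooth muscle and heart factor Mef2c, with FAIL in at least 1 pair, at 28.9, 16.7 and 28.4. None reached 2-fold against floxed in either Cre group. In Sm22Cre 19 of 22 had lower values than floxed, with a median of -0.10 beside 0.01 for all genes. Tbx5, a factor of the heart chambers, was lowest, at 1.80, 1.73 and 0.68 FPKM. Nkx2-5, which acts in heart muscle, was at 1.54, 2.28 and 0.72 FPKM. Heart muscle markers were lower there too: all 12 had lower values in Sm22Cre than in floxed, 7 by 2-fold, with sums of 998.3, 1551 and 449.8 FPKM and none at 0. Of the 12, 6 had FAIL in at least 1 pair. Their part in these values was not tested. Going the other way, the neural crest genes Dlx6 (1.61, 2.61 and 2.48 FPKM) and Dlx5 (3.05, 3.28 and 3.85) were the highest ratios in Sm22Cre, at 0.42 and 0.26. In Cdh5Cre Hand2 was highest (9.78 and 16.7 FPKM in floxed and Cdh5Cre, ratio 0.71) and Tbx18, after Mef2c, lowest (19.4 and 12.5 FPKM, -0.59). These ratios are as deposited. The median of this list in Cdh5Cre was 0.08, and -0.01 with the length and GC trend removed.

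**Figure D5:**
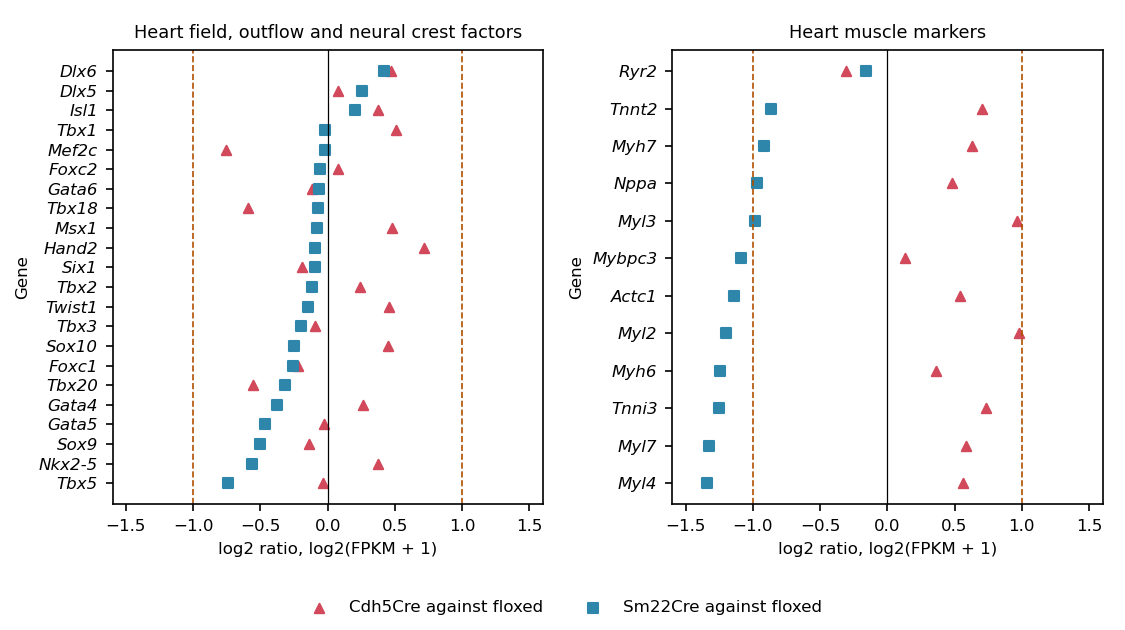
Log2 ratios on the log2(FPKM + 1) scale of the 22 analysed factors of the heart fields, outflow tract and neural crest (left) and of the 12 heart muscle markers (right). Triangles are Cdh5Cre against floxed, squares Sm22Cre against floxed, and dashed lines mark 2-fold. Of the squares 19 of 22 factors and 12 of 12 heart markers lie below 0, and the median of all genes in that comparison is 0.01.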

How the data were processed

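Members and gene lists were chosen with earlier results of these data known. Per the submitters' processing notes, Cufflinks 1.3.0, SAMtools 0.1.7, Bowtie2 2.1.0 and TopHat2 2.0.8 were used with mouse build mm9; their options and the gene annotation are not given in the sources used here. The deposited table gives FPKM for each group in each of 3 pairs, with a status per gene, and the authors had already combined the 3 libraries of a group. It holds 113004 rows for 37668 genes, of which 32638 matched a symbol by identifier. Listed starts were taken to count from 0, because end minus start equalled the gene's GENCODE length for 12013 genes alone at their locus and that plus 1 for 302, and 1 was added.

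Ratios were differences of log2(FPKM + 1) among genes that reached 1 FPKM in any group, without 7 genes of status HIDATA, which left 14225. With 1 value per group no test was possible, and 2-fold on this scale was used as a rule of size. Named were all Hox members at 1 FPKM or more, and in each list the 3 most abundant genes, those past 2-fold and those with the highest and lowest ratios, shortened in the text. The trend was a cubic surface in log2 length and GC content of each gene's longest protein-coding transcript in GENCODE M21, and was tested on simulated data. Python 3.11.15, numpy 2.4.6, pandas 2.3.3 and scipy 1.17.1 were used. The values of 2 genes are not reported here and not drawn, though counts, sums and medians include them.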

Additional observations from a re-analysis of the deposited data

How the results depend on the processing

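No paired analysis was possible because the groups share no replicate number and the table gives 1 value per group; no library could be left out either. The number of Hox members past 2-fold stayed at 0 in all 3 comparisons with pseudocounts of 0.1 and 0.5, without the low-value filter or with it at 5 FPKM (7 members left), under quantile normalization, with all genes centred on 0, among genes with status OK and with the value listed in the other pair. Some of these counts of 0 were fixed in advance. Values below 1 FPKM cannot differ by 2-fold on the log2(FPKM + 1) scale, so members added without the filter could not count. The filter at 5 FPKM, status OK and the other pair could add no member either. With the trend in length and GC content removed the number past 2-fold was 1 in Cdh5Cre against floxed (Hoxa6) and 0 in the others. The Hox median lay between -0.12 and 0.04 in Cdh5Cre against floxed, 0.00 and 0.04 in Sm22Cre against floxed and -0.01 and 0.14 in Sm22Cre against Cdh5Cre, with the outer values of -0.12 and 0.14 under trend removal. Of 429 single-gene values under the alternatives, 405 kept their direction and stayed under 2-fold. Another 23 changed sign, from log2 ratios no larger than 0.18 in size, and 1 (Hoxa6) passed 2-fold. Many of the 405 were fixed in advance. All 17 members had status OK and no Hox value differed between pairs, so these settings and the filters returned the main values. A pseudocount cannot turn a sign. The sign changes came from trend removal (15), quantile normalization (4) and centring (4). Trend removal turned the sign of 7 members in Cdh5Cre against floxed (Hoxa3, Hoxa4, Hoxa7, Hoxb4, Hoxb5, Hoxb8 and Hoxc6), of 8 in Sm22Cre against Cdh5Cre and of 0 in Sm22Cre against floxed.

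At 5 FPKM the number of members expressed was 6 in floxed, 6 in Cdh5Cre and 7 in Sm22Cre. Without Hoxa3 the anterior share was 20.1%, 17.8% and 21.1%. Among members that share their locus with no other gene, which are nearly all low or posterior, the anterior share was 0%, 0.46% and 1.86% and the posterior share 59.5%, 67.4% and 64.7%, in the order floxed, Cdh5Cre and Sm22Cre, and the central share was 32.1% in Cdh5Cre and 33.4% in Sm22Cre. FPKM carries no depth, so the precision of levels under 1 FPKM is not known.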

Other observations

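Of 30 other mesodermal patterning factors listed, 17 were analysed, and Meox1, a factor of the somites, was the only one past 2-fold in Cdh5Cre against floxed, at 4.93, 13.1 and 4.43 FPKM (floxed, Cdh5Cre, Sm22Cre, as below). Its log2 ratio was 1.25, and 1.10 with the length and GC trend removed. Tcf21, a factor of adventitial and other fibroblasts, was at 7.75, 15.6 and 6.33 FPKM. Both were lower by 2-fold in Sm22Cre against Cdh5Cre. Osr1 was the most abundant, at 76.9, 105.1 and 84.4 FPKM. Prrx1, with status FAIL in at least 1 pair, stood at 44.0, 27.8 and 37.2 FPKM and its relative Prrx2, also with FAIL, at 9.19, 16.6 and 11.1, so the pair went opposite ways in Cdh5Cre. Their transcripts are 6527 and 1441 bases long, and with the trend removed the ratios were -0.21 and 0.34.

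Genes that flank the clusters but are not Hox factors gave no call at 2-fold in any comparison, among 11 analysed. Atp5g1, near cluster B, encodes a subunit of ATP synthase and was at 93.2, 150.4 and 79.9 FPKM. With the length and GC trend removed it passed 2-fold in Sm22Cre against Cdh5Cre (-1.16). Cbx5, beside cluster C, was at 26.6, 17.5 and 23.9. An Ensembl gene at the locus of Hoxd8 for which the tables give no symbol, ENSMUSG00000042464, was at 0.62, 1.01 and 0.75 FPKM and is not read here as any named gene.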
